A study of Mus musculus with 4 samples.

Results

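The periportal zone of mouse liver was compared between carbon tetrachloride (CCl4) fibrosis and health, in sections read with Visium, an array of barcoded spots that counts transcripts as unique molecular identifiers (UMIs). Each spot with at least 2000 UMIs was scored as the log2 of its Cyp2e1 UMIs plus 1 over its Cyp2f2 UMIs plus 1, and the spots of each section were ranked and divided into 3 zones of equal size, of which the lowest is the periportal zone. These were 3254 of 9756 spots in the 3 sections compared, with 1374 in fibrotic replicate 1, 859 in fibrotic replicate 2 and 1021 in the healthy section. The series holds 13640 spots in 4 sections.

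The fibrotic group was 2 HK2fl/fl mice given CCl4, and the healthy group was 1 HK2fl/fl mouse given olive oil. Another CCl4 section, from a PDGFRBcreERT2/Hk2fl/fl mouse in which hexokinase 2 is deleted by a tamoxifen-induced Cre under the Pdgfrb promoter, entered only an alternative named below. All mice, controls included, received tamoxifen at 75 mg/kg for 5 days and then waited 2 weeks, so the floxed control mice share the drug but carry no Cre. CCl4 was given at 1 µL per gram, 2 times a week, for 6 weeks in the design text, where the treatment protocol allows 4 or 6. The labels give all 4 mice as males aged 5 months. Transcripts of the Y chromosome went against that label in fibrotic replicate 1: Eif2s3y had 0.578 counts scaled to library size in the usual unit, CPM, over its whole section, against 62.1 in fibrotic replicate 2, 63.2 in the Hk2-deleted section and 69.9 in the healthy one, and Ddx3y had 0.415 CPM there, against 50.3, 47.0 and 52.4. Each result is therefore given section by section, and the counts of changed genes are repeated with the Hk2-deleted section in place of fibrotic replicate 1.

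Liver lobules run from the portal triad, where blood enters, to the central vein, where it leaves. Hepatocytes next to the portal triad are known for gluconeogenesis, urea synthesis and amino acid breakdown, while those next to the central vein hold most of the glutamine synthesis and of the drug-metabolising cytochromes P450. CCl4 is turned into a radical by Cyp2e1, a pericentral P450, and is classically used to injure the pericentral side, so the periportal side is the one farther from the primary injury. Cyp2f2 is a P450 of periportal hepatocytes.

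Because Cyp2e1 and Cyp2f2 UMIs chose the spots, their values are a description and were not tested. Median Cyp2e1 UMIs per periportal spot were 20 and 20 in fibrotic replicates 1 and 2, against 77 in the healthy section, and median Cyp2f2 UMIs were 25 and 29, against 28. The cut therefore fell at different scores: the highest score inside the periportal zone was 0.564 and 0.387 in the fibrotic sections, against 2.437 in the healthy one. The spots just outside scored 0.567 and 0.389, against 2.441. Of all fibrotic spots, 73.3% and 65.2% scored at or under the healthy cut, so the same zone stands for different Cyp2e1 levels in the 2 conditions. Of the neighbours of a periportal spot, 59.3% and 61.2% were periportal in the fibrotic sections, against 63.9% in the healthy one.

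**Figure D1:**
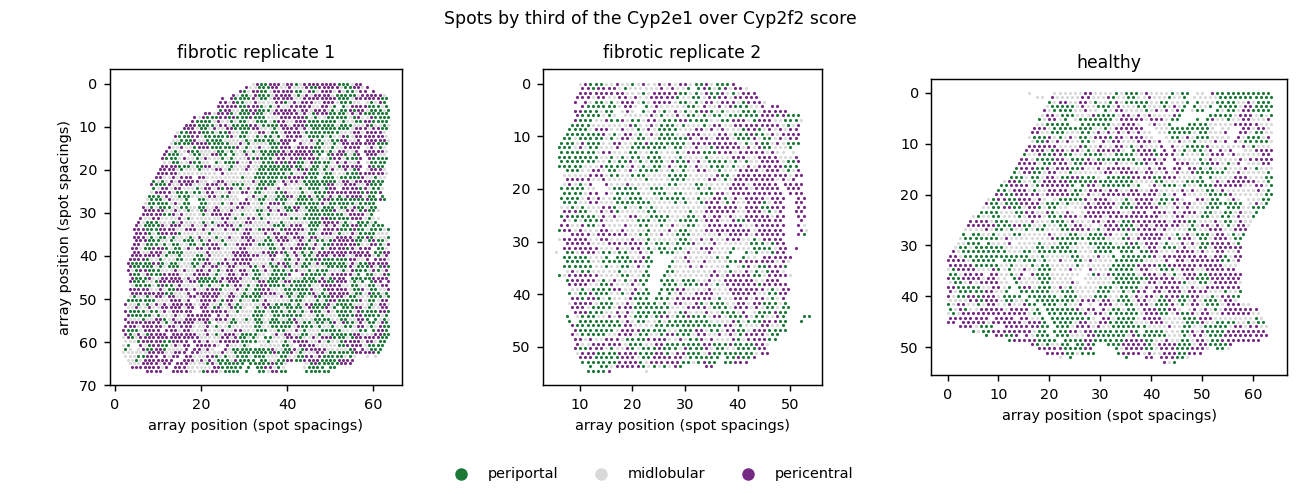
Position of each spot on its array, in units of the spacing between spots, for the fibrotic sections and the healthy section; green spots are the periportal zone, grey the midlobular and purple the pericentral. Periportal spots form small patches over the whole of each section, with 1374, 859 and 1021 spots.

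The label held for hepatocyte markers that the rule did not use, and less so for portal fibroblast markers. A marker was counted when its level fell stepwise from the periportal through the midlobular to the pericentral zone. Of 12 periportal hepatocyte markers, 11 did so in fibrotic replicate 1, in fibrotic replicate 2 and in the healthy section. None of 10 pericentral markers did. Of 5 cholangiocyte markers 3 and 5 fell stepwise in the fibrotic sections, against 5 in the healthy one, and of 4 portal fibroblast markers 1 and 0, against 3. The 12 periportal markers summed to 8016 and 9797 CPM in the periportal zone of the fibrotic sections, against 8909 CPM in the healthy one, and the 10 pericentral markers to 1822 and 1393 CPM, against 2012. Other cell types were present too, since a spot holds several cells. The 5 cholangiocyte markers summed to 392 and 352 CPM against 154 in the healthy zone, the 5 fibroblast and stellate cell markers to 929 and 480 against 173, the 4 Kupffer cell markers to 1040 and 793 against 841, and the 4 neutrophil markers to 181 and 340 against 4.03, with none of these markers at 0 in any of the 3. Periportal totals were 17514401 and 14328943 UMIs in the fibrotic sections, against 22604046 in the healthy one. The median depth was 12089.5 and 13582 UMIs per periportal spot in the fibrotic sections, against 20363 in the healthy one, and 17813 and 13308 per pericentral spot, against 12591.5. Midlobular spots had a median of 16689 and 14054 UMIs in the fibrotic sections, against 14691. Periportal spots were thus the deepest of the 3 zones in the healthy section and the shallowest in fibrotic replicate 1. In fibrotic replicate 2 they lay between the midlobular and the pericentral spots. Of periportal spots, 1.38% and 0.931% lay in the collagen-richest 10% of their section, against 9.30% in health. Of pericentral spots, 21.5% and 21.6% did in the fibrotic sections, against 9.61% in health. Mesothelial transcripts were held or adjoined by 28.5% and 2.44% of periportal spots, against 16.4%. The part of these differences in the results was not tested, beyond the alternatives given.

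UMIs were summed over the periportal zone of each section, and edgeR's quasi-likelihood test compared the 2 fibrotic sums with the healthy sum over 12836 genes. A gene is called changed at an adjusted p under 0.05. Called higher in the fibrotic sections were 333 genes (2.59%) and called lower 208 (1.62%), and the median log2 fold change over all genes was 0.01. With the Hk2-deleted section in place of fibrotic replicate 1, 432 of 13001 genes were called higher (3.32%) and 314 lower (2.42%). Both fits called 293 genes higher, 88.0% of the first list and 67.8% of the second, and 186 lower, 89.4% and 59.2%. The fibrotic sections supply the only residual degree of freedom, and the lone healthy section is assumed to vary like them. The p-values rest largely on a spread that edgeR shares across genes of like abundance. They are thus not a measure of each gene's own spread between mice. DESeq2 called 144 genes higher and 98 lower. Fewer cells of a type and less RNA per cell cannot be told apart in such sums. Levels per section are normalised CPM unless stated, and fold changes are log2 of fibrotic over healthy with their standard error (SE). The SE was worked back from the F value of the edgeR test, so it rests on the same shared spread.

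The largest increases were in neutrophil granule genes, a macrophage gene and collagen. Gpnmb, a glycoprotein of lipid-laden macrophages, had 36.0 and 27.6 CPM in the fibrotic sections, against 0.244 CPM in the healthy one, a log2 fold change of 6.99 ± 0.38 (SE; edgeR adjusted p = 4.56e-08). Ngp, a neutrophil granule protein, had 50.6 and 94.7 CPM against 0.537, a change of 7.06 ± 0.48. Col1a1, a chain of type I collagen, had 179 and 79.0 CPM against 9.33, a change of 3.79 ± 0.42 (edgeR adjusted p = 9.92e-05). In each of these genes both fibrotic sections lay above the healthy one, as the choice of genes required. Their order was not constant: fibrotic replicate 2 was the higher for the granule genes and fibrotic replicate 1 for Col1a1. Ltf, which encodes the iron-binding lactoferrin of neutrophils, had 358 and 589 UMIs in the fibrotic sections, against 2 in the healthy one, a depth-corrected ratio of 288 with a 95% counting interval of 79.5 to 2381. Camp, the cathelicidin precursor, had 496 and 592 UMIs against 3, a ratio of 221 (75.3 to 1071). These intervals cover counting error only. Ltf and Camp passed the filter on low counts only through the fibrotic sections, so they could be called only higher.

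The other genes among the 15 largest increases were S100a8, S100a9, Ighg2c, Lcn2, Ly6d, Mmp2, Col1a2, Acot3, Orm2 and Hamp2. S100a8 and S100a9, the subunits of calprotectin, had 68.7 and 163 CPM against 3.66, and 150 and 388 CPM against 10.5. Lcn2, an iron-scavenging lipocalin made by neutrophils and by stressed hepatocytes, had 95.4 and 239 CPM in the fibrotic sections, against 15.9. The fibrotic sections differed from each other several-fold for Ighg2c (58.4 and 18.2 CPM, against 2.05), an immunoglobulin heavy chain, for Acot3 (35.3 and 7.34 against 2.74), an acyl-CoA thioesterase, and for Orm2 (145 and 553 against 48.2), an acute phase glycoprotein. Ly6d, a small membrane protein, was nearly equal in the fibrotic sections, with 23.2 and 21.2 CPM against 2.44 in the healthy one (3.18 ± 0.26).

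**Figure D2:**
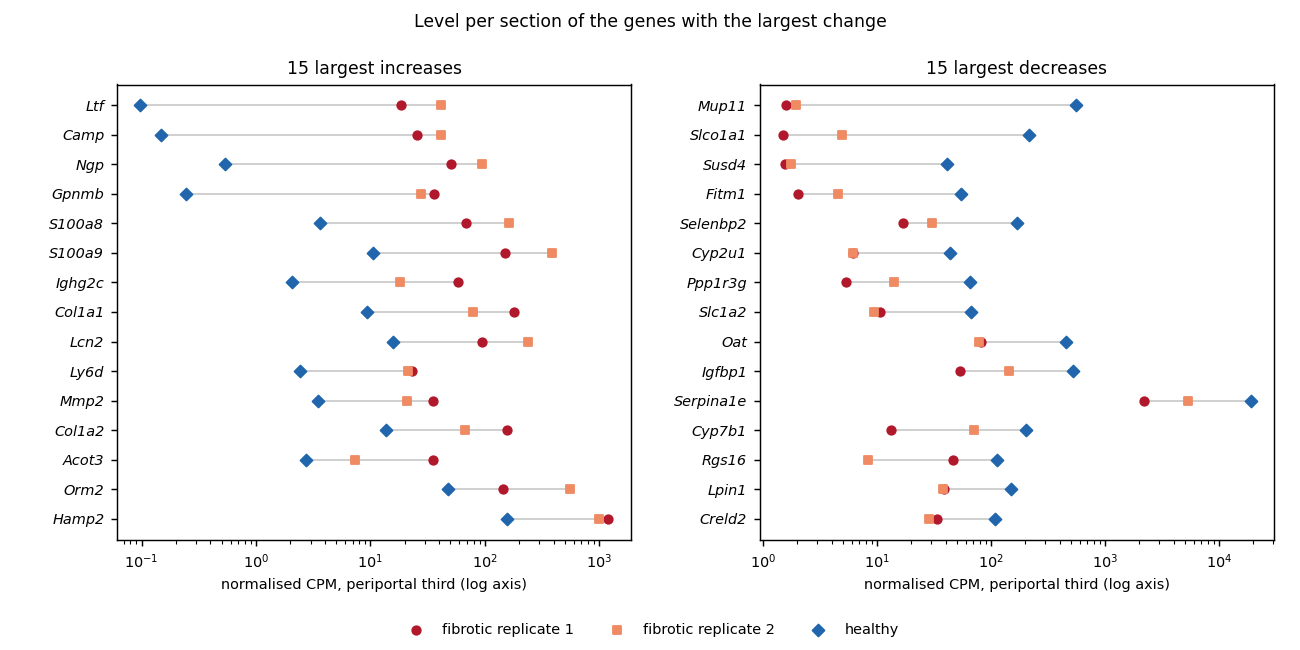
Normalised CPM (log axis) of the periportal zone in the 2 fibrotic sections and the healthy section, for the 15 largest increases and 15 largest decreases. Each point is 1 section, and both fibrotic points lie on the same side of the healthy point in every row, as the choice of genes required.

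The largest decreases were in hepatocyte genes. Mup11, a major urinary protein that carries pheromones, had 1.60 and 1.96 CPM in the fibrotic sections, against 553 CPM in the healthy one, a change of −8.29 ± 0.30 (edgeR adjusted p = 4.78e-10). Slco1a1, a sinusoidal uptake carrier for bile acids and other organic anions, had 1.50 and 4.89 CPM against 213 (−6.11 ± 0.38). Susd4, a regulator of complement, had 1.55 and 1.75 CPM against 41.4, and Fitm1, a protein of lipid droplet formation, had 2.02 and 4.54 against 55.1. Both fibrotic sections lay below the healthy one for each of them, as the choice of genes required. Serpina1e, an α1-antitrypsin copy, was the most abundant gene of this set, with 2194 and 5305 CPM against 18977 (−2.34 ± 0.62; edgeR adjusted p = 0.0469), and was not called with the Hk2-deleted section. Mup, Serpina1, Orm, Hamp and Cyp2b genes have near-identical copies, and which copy gave the UMIs is uncertain.

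Oat and Slc1a2, which handle ornithine and glutamate and are normally pericentral, were also among the 15, as were the P450 Cyp2u1, the glycogen-targeting phosphatase subunit Ppp1r3g and the growth factor binding protein Igfbp1. Oat had 81.7 and 78.8 CPM in the fibrotic sections, against 458 (−2.51 ± 0.24), and Slc1a2 had 10.6 and 9.43 against 66.9 (−2.73 ± 0.19). Ppp1r3g had 5.32 and 14.05 CPM against 65.1, and Igfbp1 had 53.3 and 144 against 521. Lpin1, a phosphatidate phosphatase, stood at 38.8 and 38.2 CPM against 149. Selenbp2, Cyp7b1, Rgs16 and Creld2 completed the set. Rgs16, a regulator of G protein signalling, varied most between fibrotic sections, with 46.3 and 8.25 CPM against 114.

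Genes of urea synthesis and amino acid breakdown, functions of the periportal hepatocyte, were called about as seldom as all genes (2.59% higher and 1.62% lower). Lists of genes with a known role were drawn up, 32 lists with 873 genes of which 793 were tested, 109 called higher and 52 lower. Each list's count for CCl4 against olive oil is to be read beside the shares over all genes, 2.59% higher and 1.62% lower. None of 12 genes of the urea cycle and of ammonia handling was called, with a median log2 change of 0.01. Cps1, which makes carbamoyl phosphate for the cycle, had 2660 and 3492 CPM in the fibrotic sections against 4483 (−0.54 ± 0.47; edgeR adjusted p = 0.611), and Arg1, which releases urea, had 1298 and 1538 against 1557. Of 41 genes of periportal amino acid breakdown, 1 was called, Ahcy, the S-adenosylhomocysteine hydrolase, with 90.0 and 111 CPM against 49.6 (1.02 ± 0.23). The median of that list was −0.20, and its member Sds, serine dehydratase, had 143 and 305 CPM against 185. A p above the threshold does not show that these levels were equal: there was 1 healthy section, and the SE of Cps1 alone was 0.47. Abundant genes could have a large SE: that of Alb, albumin, was 1.18, with 125960 and 104754 CPM against 173794.

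Of 18 genes of gluconeogenesis and glycogen, Pck2, the mitochondrial phosphoenolpyruvate carboxykinase, was called higher (27.4 and 23.2 CPM against 8.45; 1.58 ± 0.22) and Ppp1r3g lower. Pck1, the cytosolic enzyme, had 1600 and 2639 CPM in the fibrotic sections, on either side of the 2008 CPM of the healthy one. Of 24 genes of glycolysis, 3 were called lower and none higher. Among them, Pfkfb1 and Pfkfb3, which set the level of fructose-2,6-bisphosphate, changed by −1.25 ± 0.19 and −1.65 ± 0.32. Hk2, the gene deleted in the mouse with the Cre, had 3.52 and 2.87 CPM against 2.64 and was not called.

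Of 32 other periportal hepatocyte genes, 6 were called higher and 2 lower. Hamp2, a copy of the iron hormone hepcidin, had 1190 and 988 CPM in the fibrotic sections, against 155 in the healthy one (2.81 ± 0.39; edgeR adjusted p = 0.000615), while its copy Hamp had 525 and 725 against 383 and was not called (0.71 ± 0.33). Hamp2 was not higher periportally in health: its log2 of periportal over pericentral level was −0.24 there, against 1.44 and 1.49 in fibrotic replicates 1 and 2. Apoa4, an apolipoprotein, had 540 and 677 CPM against 96.6 (2.66 ± 0.35). Aldh1b1, a mitochondrial aldehyde dehydrogenase, had 178 and 209 against 70.2, and Cyp17a1, a steroid hydroxylase, had 50.1 and 40.3 against 14.8. Spp1, osteopontin, which bile duct cells and macrophages also make, and Sult5a1 were the other 2. Clec2h and Acly were lower. Among 20 genes of iron and metallothionein, Hamp2, Mt2 and Id1 were called higher and Slc30a10 lower, with Mt2, a metal-binding protein, at 856 and 1238 CPM against 370.

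Of 32 pericentral hepatocyte genes measured in the periportal zone, Oat, Slc1a2 and Lhpp were called lower and Gstm3, a glutathione transferase, higher (187 and 183 CPM against 41.6). With the Hk2-deleted section 8 were called lower and 2 higher. Cyp1a2, a pericentral P450, had 394 and 268 CPM against 531 and was not called (edgeR adjusted p = 0.269).

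Several genes of the growth hormone and sex-biased list were nearly undetected in the fibrotic zone. Of its 26 tested members, 9 were called lower and 2 higher, and their median was −1.09, against 0.01 over all genes. Hsd3b5, a male-biased steroid dehydrogenase, had 0 and 1 UMIs in the fibrotic sections, against 396 in the healthy one, a healthy over fibrotic ratio of 651 (116 to 25783). Elovl3, a fatty acid elongase, had 0 UMIs in both against 65, at least 35.6-fold lower by a floor of 3 counts over the group. Hsd3b5 and Elovl3 passed the filter on low counts only through the healthy section, so they could be called only lower. The median of the list was −1.64 with fibrotic replicate 1 alone and −0.66 with fibrotic replicate 2 alone. Female-biased members stood apart in fibrotic replicate 1, the section with few Y transcripts: A1bg, which was not called, had 504 UMIs there and 2 in fibrotic replicate 2, against 2 in the healthy section, and Hao2 had 8.43 and 1.12 CPM against 0.440. Mup11, Susd4, Fitm1, Hsd3b5 and Elovl3 were low in both fibrotic sections.

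Genes of bile acid handling were called in 1 direction, with 5 of 27 lower, where 1.62% of all genes were called lower and 2.59% higher. Besides Slco1a1 these were Cyp7b1 (13.1 and 70.4 CPM against 201), the oxysterol hydroxylase of the alternative synthesis pathway, Cyp8b1 (0.569 and 0.908 against 3.32), which sets the cholic acid share, Nr0b2 (32.7 and 23.0 against 88.5), the receptor that represses bile acid synthesis, and Abcg8 (42.3 and 38.4 against 75.7), a sterol exporter. Cyp7a1, the rate-limiting enzyme of bile acid synthesis, had 353 and 365 CPM against 257 and was not called. Of 36 other P450 and conjugation genes, 2 were called higher (Cyp4a10 and Cyp39a1) and 3 lower (Cyp2u1, Cyp4a14 and Cyp51), with both of the higher ones not called once the Hk2-deleted section replaced fibrotic replicate 1.

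Genes of lipid synthesis, sterol synthesis and lipoproteins, taken as 1 list, were also called in 1 direction. Of 43, 8 were lower and none higher, with a median of −0.42. The direction depends on how the list was drawn, since Apoa4, an apolipoprotein called higher, was counted among the other periportal hepatocyte genes. Over all genes, 1.62% were called lower and 2.59% higher, with a median of 0.01. Fasn, fatty acid synthase, had 134 and 146 CPM in the fibrotic sections against 446 (−1.67 ± 0.25; edgeR adjusted p = 0.00107). Acly, which supplies cytosolic acetyl-CoA, had 182 and 239 against 456. Lss, Hmgcs1 and Mvd, enzymes of sterol synthesis, changed by −1.55 ± 0.19, −1.26 ± 0.25 and −1.18 ± 0.19. Gpam and Acacb were also called lower. Of 30 genes of fatty acid oxidation and ketogenesis, 3 were lower (Fabp1, Acot1, Cyp4a14) and 1 higher (Cyp4a10), with Fabp1, the liver fatty acid binding protein, at 255 and 222 CPM against 672.

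Several chaperone and stress genes of the endoplasmic reticulum fell in the fibrotic periportal zone. Of 20 genes of the integrated stress and unfolded protein response, 6 were called lower and none higher, with a median of −0.66. Hspa5, the Hsp70 chaperone BiP of the endoplasmic reticulum (chromosome 2, 34772090 to 34776529 on GRCm38.p6), had 354 and 340 CPM in the fibrotic sections, against 1051 CPM (−1.60 ± 0.30; edgeR adjusted p = 0.00537). Sdf2l1, a cofactor of that chaperone, had 16.5 and 18.2 against 49.2, and Dnajb9, a co-chaperone, had 21.6 and 19.8 against 53.3. Chac1, Trib3 and Herpud1 were also lower, while Ddit3 (20.2 and 16.2 against 16.1) and Atf3 (9.15 and 12.7 against 6.79), transcription factors induced by stress, were not called. Creld2, an endoplasmic reticulum protein among the 15 largest decreases (chromosome 15, 88819646 to 88826681), had 33.5 and 28.7 CPM against 108 (−1.79 ± 0.20; edgeR adjusted p = 9.05e-05).

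The promoter windows of Hspa5 and Creld2, both called lower, are shown because they hold the same element. It is not general to the stress list: 3 of its 20 promoters held it (Hspa5, Hsp90b1 and Calr), and those of Sdf2l1, Dnajb9, Chac1, Trib3 and Herpud1, which were also called lower, did not. Both come from RefSeq on GRCm38.p6, each 300 bases on the plus strand, from 250 bases before the annotated start to 50 after it, at chr2:34771840-34772139 and chr15:88819396-88819695. Capitals mark a match, on either strand, to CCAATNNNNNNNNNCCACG, the letters of the endoplasmic reticulum stress response element.
Hspa5: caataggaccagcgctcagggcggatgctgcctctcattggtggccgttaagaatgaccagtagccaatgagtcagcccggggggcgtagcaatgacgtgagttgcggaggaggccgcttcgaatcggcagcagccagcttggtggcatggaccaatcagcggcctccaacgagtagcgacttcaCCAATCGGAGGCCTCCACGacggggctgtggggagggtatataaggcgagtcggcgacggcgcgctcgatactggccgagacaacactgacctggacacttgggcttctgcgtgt
Creld2: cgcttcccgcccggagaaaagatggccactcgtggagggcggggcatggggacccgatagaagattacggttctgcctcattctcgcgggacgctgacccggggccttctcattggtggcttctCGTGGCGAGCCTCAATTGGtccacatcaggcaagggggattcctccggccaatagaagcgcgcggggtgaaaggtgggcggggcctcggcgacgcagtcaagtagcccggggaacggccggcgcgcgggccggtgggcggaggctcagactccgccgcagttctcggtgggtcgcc

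The element was present in 39 of 32851 RefSeq promoter windows of that length (0.119%), which belonged to 37 genes. Of these, 16 were tested in the periportal zone, 5 were called lower and none higher, and their median log2 change was −0.71. Over all genes tested, 1.62% were called lower and 2.59% higher, with a median of 0.01. This gene set was assembled with the expression values known. The matches in the 5 called genes and in 3 chaperone genes that were not called are given in the orientation of the motif, with its fixed letters in capitals.
Hspa5: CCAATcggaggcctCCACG
Creld2: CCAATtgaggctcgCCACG
Syvn1: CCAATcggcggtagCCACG
Derl3: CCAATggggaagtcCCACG
Acacb: CCAATagccttgccCCACG
Hsp90b1: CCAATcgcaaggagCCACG
Hsp90b1: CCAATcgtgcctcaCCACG
Calr: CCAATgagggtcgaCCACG
Dnajc3: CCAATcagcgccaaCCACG
Syvn1, a ubiquitin ligase of the endoplasmic reticulum, had 45.8 and 42.4 CPM in the fibrotic sections against 129 (−1.54 ± 0.20), and Derl3, a component of the same degradation route, had 2.33 and 2.24 against 6.59. Acacb, an acetyl-CoA carboxylase, had 45.6 and 38.7 against 77.6. The chaperones Hsp90b1 (772 and 840 CPM against 1553), Calr (235 and 293 against 427) and Dnajc3 (166 and 215 against 314) also had both fibrotic sections below the healthy one but were not called, with edgeR adjusted p of 0.165, 0.206 and 0.164. Of the 11 genes with the element that were not called, 3 lay the other way: Zfp57 (1.50 and 1.47 CPM against 0.244; 2.57), Spats2l (0.42) and Adcy3 (0.38). These genes were picked by the motif and not by the rule for named genes. A match describes letters in a window and is not evidence of binding, and Alg12 and Creld2 windows hold the same match.

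Plasma proteins made by hepatocytes showed changes in both directions. Of 46 acute phase, complement and coagulation genes, Lcn2, Orm2 and Orm3 were called higher and Socs3, F11 and Il1r1 lower, with a median of −0.0003. Orm3 had 71.9 and 113 CPM in the fibrotic sections against 15.5 (2.57 ± 0.29). Hp, haptoglobin, had 1355 and 2174 against 1254 and was not called. Socs3, a feedback inhibitor of cytokine signalling, had 14.4 and 30.7 CPM against 54.0. Of 17 p53 target genes, Cdkn1a, a cell cycle inhibitor, and Phlda3 were called higher, with Cdkn1a at 10.4 and 6.64 CPM against 2.64; DESeq2 called neither. Of 19 Nrf2 target and oxidative stress genes, 1 was called, Gpx3, an extracellular glutathione peroxidase, with 41.1 and 34.7 CPM against 16.2.

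Most fibrillar collagen genes and a part of the other matrix genes rose in the fibrotic periportal zone. Of 6 fibrillar collagen genes, 5 were called higher and none lower, with a median of 2.33. Col3a1 had 373 and 218 CPM in the fibrotic sections, against 47.6 CPM, Col1a2 had 155 and 67.1 against 13.8, and Col5a2 had 24.8 and 15.5 against 4.98. Fibrotic replicate 1 was the higher for each of these collagens. Of 56 other matrix and remodelling genes, 28 were called higher and none lower, with a median of 1.20. They included Mmp2, a gelatinase (35.4 and 20.8 CPM against 3.47), Mmp12, the macrophage elastase (17.1 and 5.52 against 0.391), Loxl1, which crosslinks elastin (16.7 and 7.48 against 2.15), and Lum, a collagen-binding proteoglycan (58.2 and 30.1 against 10.9). DESeq2 called 3 of the fibrillar collagens and 16 of the other matrix genes.

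Most markers of the matrix-making cells were not called, but in both lists the share called higher lay above the 2.59% of all genes. Over all genes 1.62% were called lower. Of 32 stellate cell and myofibroblast genes, Vim, S100a6 and Pdgfra were called higher and Ngfr and Ecm1 lower, with a median of 0.20. Acta2, smooth muscle actin, had 13.7 and 6.43 CPM in the fibrotic sections against 7.13, and Pdgfrb had 17.8 and 14.4 against 10.3. Neither was called. Reln, a stellate cell glycoprotein, had 105 and 96.4 CPM against 91.4. Of 15 portal fibroblast genes, Mfap4, Slpi, Dpt and Cd34 were called higher and none lower, with a median of 0.77. Dpt, dermatopontin, had 65.2 and 28.1 CPM against 12.4.

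Of 26 cholangiocyte and ductular genes, 5 were called higher and none lower, with a median of 0.96. Epcam, an epithelial adhesion molecule, had 18.2 and 17.1 CPM in the fibrotic sections, against 7.96 CPM (1.15 ± 0.22). Spp1 had 305 and 308 against 141, Prom1 14.6 and 8.32 against 3.52, and Cd24a 10.3 and 11.04 against 4.10. Krt19 and Krt7, cytokeratins of bile ducts, had 4.55 and 2.93 against 1.61 and 8.84 and 6.92 against 3.86 without being called. Sox9 was at 18.1 and 17.1 against 16.1.

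Among the immune cell lists, that of neutrophils had the highest share of members called. Of 15 neutrophil genes, 14 were called higher, with a median of 4.98, and Mpo and Ly6g had 0 UMIs in the healthy periportal zone. Mpo, Ly6g, Elane, Prtn3, Ltf and Camp passed the filter on low counts only through the fibrotic sections. They could therefore be called only higher, so the direction and the share called were partly set by the filter. Mpo, myeloperoxidase, had 111 and 33 UMIs in the fibrotic sections and was at least 29.2-fold higher, and Ly6g had 9 and 45 and was at least 10.9-fold higher, both by a floor of 3 counts in the healthy section. Elane and Prtn3, serine proteases of neutrophil granules, had 120 and 46 UMIs against 1 and 130 and 46 against 2. Ltf, Camp, Ngp and S100a8 were higher in fibrotic replicate 2, and Mpo, Elane and Prtn3 in fibrotic replicate 1.

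Of 24 genes of recruited and lipid-associated macrophages, 13 were called higher and none lower. Trem2, a lipid receptor, had 12.1 and 7.69 CPM in the fibrotic sections against 1.12, Cx3cr1, a chemokine receptor, 6.62 and 5.17 against 0.928, and Ccr2, the receptor of incoming monocytes, 19.6 and 14.3 against 5.42. Of 17 genes of Kupffer cells, the resident macrophages, only Marco was called, a scavenger receptor with 176 and 75.5 CPM against 28.3, and DESeq2 did not call it. Clec4f (255 and 254 CPM against 366) and Timd4 (20.1 and 17.1 against 27.6), which mark resident Kupffer cells, and Vsig4 (89.1 and 76.1 against 84.3) were not called.

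Of 29 lymphocyte and plasma cell genes, Ighg2c, Ighg2b and Iglc1 were called higher and Klrb1c lower. Of 28 genes of antigen presentation and interferon response, H2-Eb1, Ciita, Ifi27l2a and Ifi27l2b were called higher. Of 18 chemokine and adhesion genes, Cxcl1, which attracts neutrophils, was called lower, with 36.4 and 33.2 CPM in the fibrotic sections against 70.7 (−1.02 ± 0.19). With the Hk2-deleted section in place of fibrotic replicate 1 its change was 0.20 and was not called. Of 25 proliferation genes, 8 were called higher, among them Mki67 (16.6 and 6.85 CPM against 2.78), Top2a (5.69 and 2.45 against 0.684) and Cdk1 (13.3 and 9.85 against 3.13), and each was higher in fibrotic replicate 1.

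Of 40 endothelial genes, Lyve1, Cd34 and Ednrb were called higher and Ehd3 lower. Lyve1, a hyaluronan receptor of sinusoids and lymphatics, had 4.55 and 6.08 CPM in the fibrotic sections against 1.32, and Stab2, a sinusoidal scavenger receptor, had 78.0 and 74.6 against 73.9. Of 30 genes of extracellular vesicle release, a process named in the title of the series, 4 were called higher. Cd63 and Cd9, tetraspanins of vesicles, had 10.6 and 9.01 CPM against 2.00 and 27.9 and 25.9 against 12.9. Anxa1 and Smpd3, the neutral sphingomyelinase of exosome budding, were the other 2, and Rab27a, which docks vesicles, had 10.9 and 11.3 against 9.72 without a call. The median of that list was 0.03. Of 15 retinoid genes, Dhrs9 was called higher and Cyp26b1, which degrades retinoic acid, lower (5.74 and 4.33 CPM against 18.4). Of 14 genes of mesothelium and other tissues, Wt1 was called higher, with 43 and 16 UMIs against 3, and Cela1 lower.

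**Figure D3:**
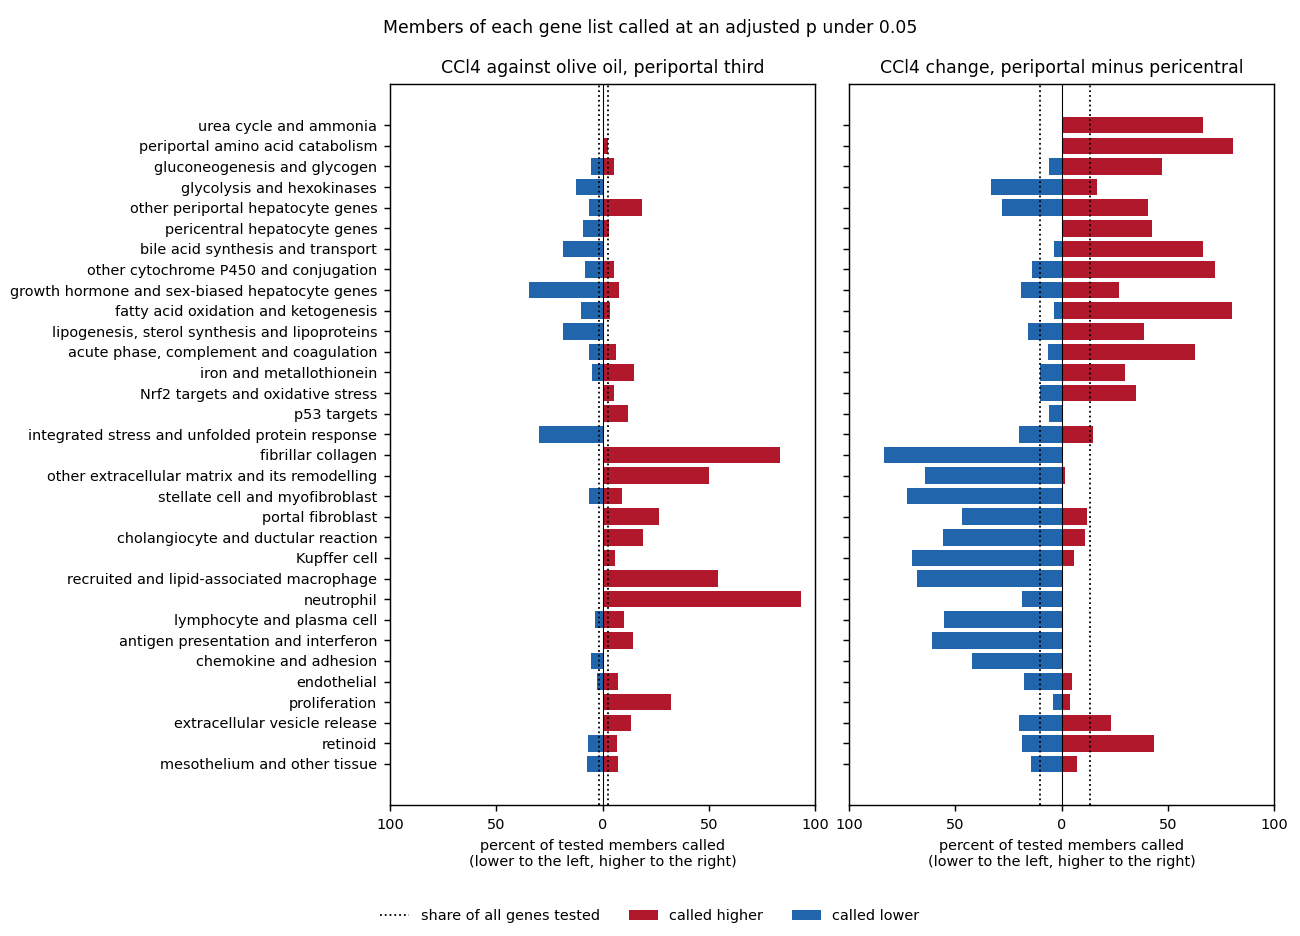
Percent of the tested members of each list called higher (red, to the right) or lower (blue, to the left), for CCl4 against olive oil in the periportal zone and for the difference of that change between the periportal and the pericentral zone. Dotted lines mark the share of all genes tested, 2.59% and 1.62% on the left panel and 13.5% and 9.93% on the right.

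To ask whether the change with CCl4 was the same at both ends of the lobule, all 3 zones of the 3 sections were fitted together with edgeR, with the section as a block. The tested value is the log2 change with CCl4 in the periportal zone minus that in the pericentral zone. Of 13198 genes, 1784 were called higher (13.5%) and 1311 lower (9.93%), with a median of −0.0035. The zones of a section share a mouse and a slide area, and 2 residual degrees of freedom remained. Both came from differences between the 2 fibrotic sections, as the healthy zones were fitted exactly. The healthy difference between zones thus has no replicate, and the p-values do not measure its spread between mice. DESeq2 called 650 and 412. Against the midlobular zone, the next zone, 129 genes were called higher (0.977%) and 118 lower (0.894%). The CPM that follow are normalised over the 9 sums and differ slightly from those above.

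The change was lower at the periportal end for matrix, stellate, macrophage and lymphocyte genes. Over all genes tested, 9.93% were called lower and 13.5% higher. Of the tested members, 5 of 6 fibrillar collagens, 36 of 56 other matrix genes, 24 of 33 stellate cell genes, 17 of 25 recruited macrophage genes, 12 of 17 Kupffer cell genes, 16 of 29 lymphocyte genes and 17 of 28 antigen presentation genes were called lower. The 10 largest named genes were Capn6, Gpx3, Plagl1, Ptgis, Col5a2, Ms4a7, Cd63, Pdgfrb, Dpt and Mamdc2. Pdgfrb, the receptor that marks stellate cells and pericytes, had 19.2 and 15.3 CPM in the fibrotic periportal zone against 11.03 in the healthy one, and 39.9 and 32.8 against 5.47 in the pericentral zone, a difference of −2.08 ± 0.18 (edgeR adjusted p = 1.69e-07). Gpx3 had 44.2 and 36.9 CPM against 17.4 in the periportal zone, and 72.9 and 70.7 against 5.93 in the pericentral zone (−2.37 ± 0.17). All 10 genes were higher periportally than pericentrally in the healthy section and lower periportally in both fibrotic sections.

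Of 16 neutrophil genes, 3 were called lower against the pericentral zone and none against the midlobular zone. Of 27 cholangiocyte genes, 15 were called lower and 3 higher. Of 25 proliferation genes, 1 was called each way. The shares over all genes were 9.93% lower and 13.5% higher against the pericentral zone, and 0.894% lower against the midlobular zone. Marco, the 1 Kupffer cell gene called higher, is given in plain CPM from the lowest to the highest score within the periportal zone. It had 208, 203 and 173 CPM there in fibrotic replicate 1, and 104 and 68.6 CPM in the midlobular and pericentral zones. Fibrotic replicate 2 was lower, with 85.4, 80.2 and 61.0 CPM, then 56.2 and 31.1. In the healthy section Marco had 24.2, 26.1 and 27.0 CPM, then 22.3 and 13.6, so it was already lower pericentrally in health.

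Several hepatocyte lists had a more positive change at the periportal end, and others were mixed. Their counts are to be read beside the shares over all genes, 13.5% called higher and 9.93% lower. Of 41 amino acid breakdown genes 33 were called higher and none lower, of 12 urea cycle genes 8 and none, of 30 fatty acid oxidation genes 24 and 1, of 36 P450 and conjugation genes 26 and 5, and of 27 bile acid genes 18 and 1. Of 33 pericentral hepatocyte genes, 14 were called higher and none lower. The mixed lists included other periportal hepatocyte genes, with 13 of 32 higher and 9 lower, growth hormone and sex-biased genes, with 7 of 26 higher and 5 lower, and glycolysis, with 4 of 24 higher and 8 lower. The 10 largest named genes were Cyp2b13, Slc22a26, Orm3, Cyp2a4, Rdh16, Hamp2, Dio1, Gstt3, Vnn1 and Mup17. Hamp2 had 1279 and 1052 CPM in the fibrotic periportal zone against 167 in the healthy one, and 471 and 375 against 198 in the pericentral zone (1.71 ± 0.09; edgeR adjusted p = 3.87e-10). Rdh16, a retinol dehydrogenase, had 99.7 and 116 CPM against 129 periportally, and 65.1 and 88.1 against 300 pericentrally (1.72 ± 0.09), so the difference came with a pericentral level below the healthy one. Orm3 had 77.3 and 120 CPM against 16.7, and 25.8 and 45.4 against 22.3.

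Of these 10, 3 were several-fold higher in the periportal zone of fibrotic replicate 1 than in that of fibrotic replicate 2. Cyp2b13 had 53.2 and 0.297 CPM in the fibrotic periportal zone against 0.683 in the healthy one, and Slc22a26 159 and 26.4 against 15.4. Cyp2a4 had 55.5 and 6.77 against 12.4. Against the midlobular zone, the 3 largest named genes were Slc22a26 (1.12 ± 0.24), Orm3 (1.12 ± 0.14) and Rdh16 (0.95 ± 0.09) on the higher side and Ms4a7 (−1.70 ± 0.32), Gpx3 (−1.11 ± 0.15) and Dpt (−1.10 ± 0.20) on the lower side.

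**Figure D4:**
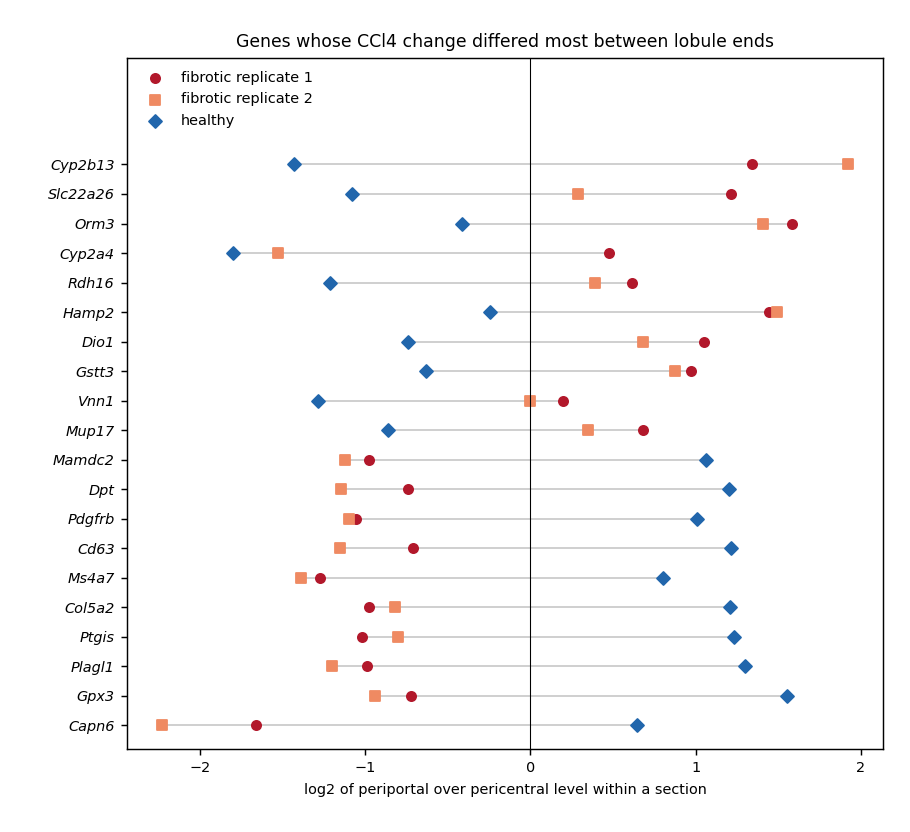
Log2 of the periportal over the pericentral level within each section, for the 10 genes on each side whose change with CCl4 differed most between those zones; points are the 2 fibrotic sections and the healthy section. In the lower 10 rows the healthy point lies right of 0 and both fibrotic points left of it.

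Within the periportal zone, spots were split by score into 3 ninths of the section, from the lowest score upward, and plain CPM of each are given without a test. Col1a1 had 169, 190 and 232 CPM in fibrotic replicate 1 and 53.1, 79.5 and 104 in fibrotic replicate 2, against 8.43, 8.20 and 8.74 in the healthy section. Gpnmb had 29.0, 37.4 and 51.9 CPM in fibrotic replicate 1 and 18.8, 30.2 and 34.1 in fibrotic replicate 2. Both genes thus had their lowest fibrotic level in the most periportal ninth, where the collagen level was still above every healthy value. Hamp2 ran the other way, with 1465, 1297 and 1192 CPM in fibrotic replicate 1 and 1025, 994 and 942 in fibrotic replicate 2, against 123, 146 and 157 in the healthy section. Sds kept its gradient in every section, with 198, 146 and 132 CPM in fibrotic replicate 1, 351, 293 and 269 in fibrotic replicate 2 and 206, 156 and 133 in the healthy section. Mup11 was at or below 2.40 CPM in every fibrotic ninth, against 351, 529 and 652 in the healthy section.

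**Figure D5:**
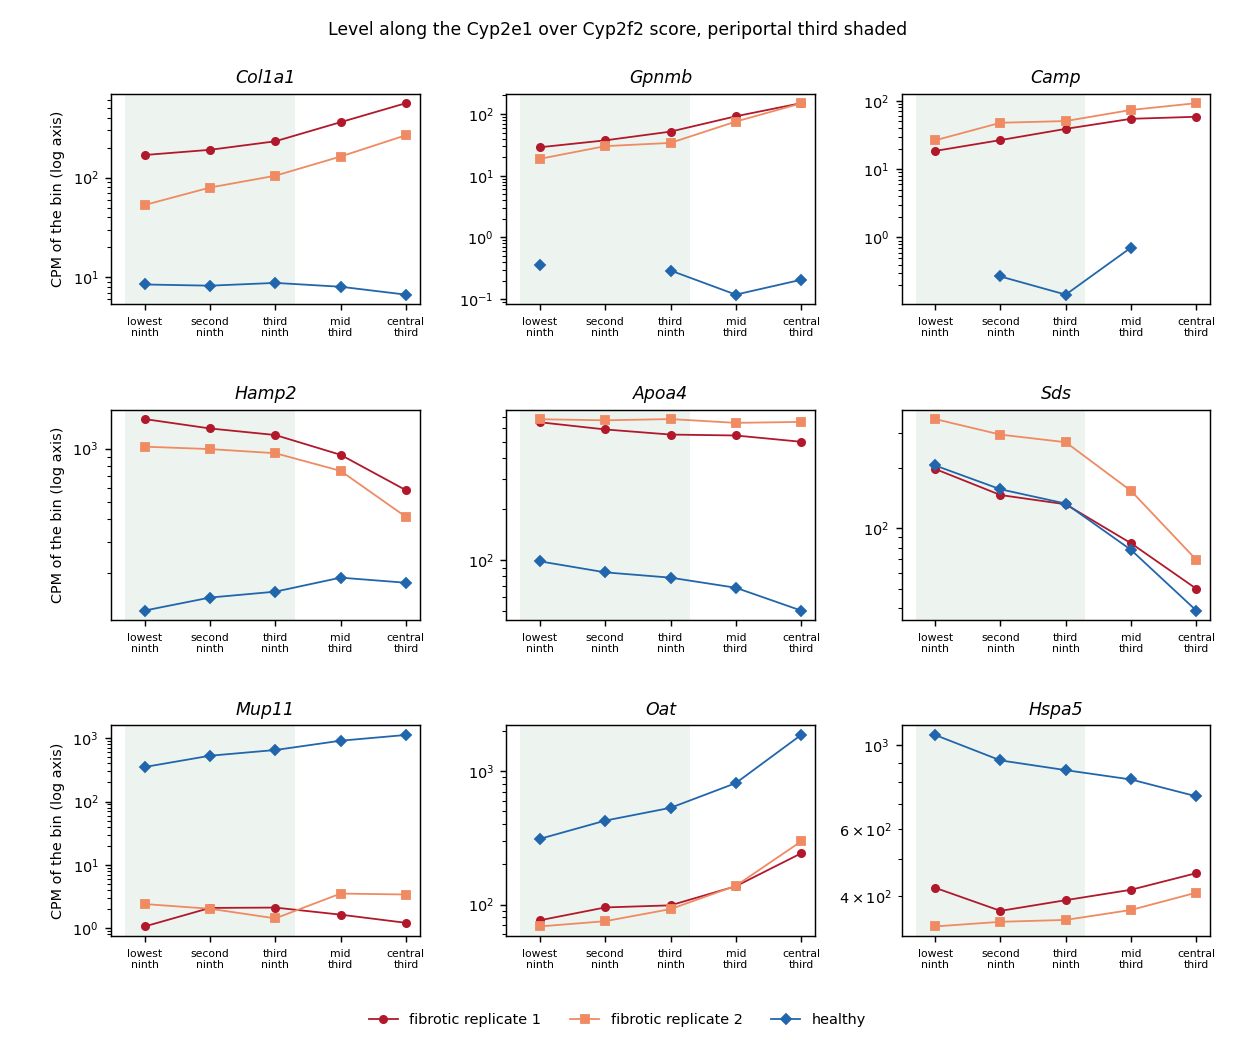
Plain CPM (log axis) of 9 genes along the score, in the 3 ninths that make up the periportal zone (shaded) and in the midlobular and pericentral zones, for the 2 fibrotic sections and the healthy section; bins with 0 UMIs are not drawn. Col1a1 and Gpnmb climb towards the pericentral side in the fibrotic sections, Hamp2 and Sds descend, and Mup11 stays near the bottom.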

How the data were processed

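Visium data of 3 formalin-fixed liver sections were used, and the Hk2-deleted section entered an alternative. The deposited matrices hold UMI counts per gene and spot. Per the file headers they come from Space Ranger 2.0.0, and the submitters' processing notes name mm10. The probe set was not stated in the labels. Of 19465 genes, 11 symbols that occur more than once were represented by the row with the higher level.

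Spots were ranked by score within each section and divided into 3 zones, and counts of each zone were summed, since spots are not replicates. The sums were fitted with edgeR 4.0.16 in R 4.3.3, with TMM scaling, the filterByExpr filter, the quasi-likelihood test and Benjamini-Hochberg adjustment over all genes tested, with 1 residual degree of freedom in the comparison of 3 sums and 2 in the fit of 9. Cyp2e1 and Cyp2f2 were left out of calls. DESeq2 1.42.0 was an alternative. The scripts were tested on simulated data. Counting intervals are exact at 95%, and the floor is 3 counts. Named genes were the 15 largest called changes each way with a mean of at least 10 CPM and both fibrotic sections on the same side. For the differences between zones they were the 10 (pericentral) and 3 (midlobular) largest each way, also of at least 10 CPM and with the same sign in both fibrotic sections. For each list, the 5 called members with the largest change, or 2 abundant members where none was called, were added, with other members named beside their list's count. The members and lists were chosen with earlier results of these data known. Promoter windows came from RefSeq.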

Additional observations from a re-analysis of the deposited data

Results flagged for a closer look

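The genes below drew attention because their change with CCl4 differed between zones of the lobule in edgeR's test of the difference itself, at an adjusted p under 0.05 and with the same sign in both fibrotic sections. Each value is the log2 change in the periportal zone minus that in the pericentral zone. On the higher side it was 2.77 for Cyp2b13, a female-biased P450, 2.06 for Slc22a26, an organic anion carrier, 1.91 for Orm3, 1.86 for Cyp2a4, 1.72 for Rdh16, 1.71 for Hamp2, 1.65 for Dio1, the deiodinase of thyroid hormone, 1.56 for Gstt3, a glutathione transferase, 1.40 for Vnn1, a pantetheinase, and 1.38 for Mup17. On the lower side it was −2.48 for Capn6, −2.37 for Gpx3, −2.36 for Plagl1, an imprinted zinc finger factor, −2.18 for Ptgis, the prostacyclin synthase, −2.13 for Col5a2, −2.12 for Ms4a7, a macrophage membrane protein, −2.11 for Cd63, −2.08 for Pdgfrb, −2.08 for Dpt and −2.08 for Mamdc2.

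Set against the midlobular zone, the value was 1.12 for Slc22a26, 1.12 for Orm3 and 0.95 for Rdh16, and −1.70 for Ms4a7, −1.11 for Gpx3 and −1.10 for Dpt. Without fibrotic replicate 1, the section with few Y transcripts, the value against the pericentral zone was 0.28 for Cyp2a4, 1.36 for Slc22a26 and 3.33 for Cyp2b13, and that against the midlobular zone was 0.65 for Slc22a26. In fibrotic replicate 2, Cyp2b13 had 0.297 CPM in the periportal zone and 0.0734 CPM in the pericentral zone, too few UMIs for a ratio.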

How the results depend on the processing

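No paired analysis was possible because there is 1 healthy section, with no replicate number. With 1 fibrotic section left out no residual degree of freedom remains, so those settings give values with no test. Of the 124 genes named for the change with CCl4, 3 moved beyond the spread of their main value without replicate 1. Without replicate 2, 5 moved and 118 did not, and none turned direction in either setting. The spread rests on the same 2 fibrotic sections that were left out in turn, so few moves do not show stable values. The largest changes were picked with both fibrotic sections on the same side, so that choice all but excluded a turn for them. Without replicate 1, 9 of the 20 values named between the periportal and pericentral zones and 2 of the 6 against the midlobular zone also moved, and without replicate 2, 1 and none. Of those 20, DESeq2 did not call Cyp2b13 and Cyp2a4. Of those 6, the landmark score did not call Ms4a7, Gpx3 and Dpt, the Hk2-deleted section Ms4a7 and Dpt, and leaving out collagen-rich spots Dpt. The cause of each change below was not tested, except that fewer genes are tested under a filter. For CCl4 against olive oil the calls numbered 541 (333 higher, 208 lower) as reported. They were 242 (144 and 98) with DESeq2, 986 (588 and 398) with no filter, and 865 (539 and 326) with the score from other landmark genes. With no scaling beyond library size, an alternative chosen after seeing the data, the median gene moved to 0.23 (0.01 with TMM) and 563 genes were called higher and 142 lower. Called lower were 314 genes with the Hk2-deleted section in place of fibrotic replicate 1 and 127 with the healthy section's cut applied to every section. Between the periportal and pericentral zones DESeq2 called 1062 genes (650 higher, 412 lower), against 3095. Between the periportal and midlobular zones 247 genes were called as reported (129 higher, 118 lower), 80 with DESeq2 (60 and 20), 567 with no filter (260 and 307), 86 with the Hk2-deleted section (21 and 65) and 66 with the landmark score (27 and 39). Cxcl1 turned direction, at 0.20 with the Hk2-deleted section. Of the same 124 genes, DESeq2 did not call 46, the healthy cut 29, upper-quartile scaling 17 and the Hk2-deleted section 9, beside Cxcl1. None was lost with no spot filter or with no gene filter, and 1 was lost without surface spots. Depth limits genes under about 3 counts, for which intervals or bounds are given.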
